A study of Mus musculus with 12 samples.

Results

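The respiratory chain is built from genes of 2 genomes, and its transcripts were followed here in RNA of mouse melanoma macrophages. The genes are 57 listed by name, 13 encoded by the mitochondrial genome (symbols that start with mt-) and 44 by nuclear chromosomes, of 34989 genes in the files. The rule that picks them uses names and no measured value, and the list was drawn up with earlier results of these data known. All 57 were found and all 57 passed the filter on low counts, which left 16027 genes in the tests, so no member is missing below. The mitochondrial genes comprise 7 of complex I, 1 of complex III, 3 of complex IV and 2 of complex V. The nuclear genes comprise 32 named for complex I, 4 of complex II, 4 of complex III and 4 of complex IV. Ndufa4 is counted by its name under complex I, although its protein is now placed in complex IV.

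The samples are labelled as macrophages associated with tumors and came from mice whose melanomas were induced locally through Tyr::CreER, a Cre recombinase driven by the tyrosinase promoter of pigment cells. All 4 groups carry this transgene. The labels also enter the genotype of all 12 samples as wild type, beside the engineered alleles and without saying which locus is meant. The other engineered alleles are not reported here, and the ages are not given beyond that mice were age-matched. Control mice received normal chow, with phosphate-buffered saline as the vehicle of the injections. The CD40 agonist group was given FGK4.5, an antibody that switches on CD40, at 10 mg/kg into the peritoneum every 3 days for up to 10 doses. The CSF1Ri group received chow with PLX6134 at 600 mg/kg, and CSF1Ri is taken to stand for inhibition of the receptor for CSF1, a growth factor of macrophages. The Combination group received both. Treatment began 30 days after induction, while tumors still totalled under 100 mm3, and ran for 30 days or until a tumor reached 2 cm3. Each group has 3 libraries, and each library pooled at least 3 tumors. Whether the 3 pools of one group stem from different mice is not in the labels, so p-values measure the spread between these pooled samples, which may in part be technical. The series asks whether both therapies aimed at myeloid cells act together.

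Electrons from NADH enter the chain at complex I and those from succinate at complex II, pass through complex III to complex IV, where oxygen is reduced, and the proton gradient made on the way drives complex V, the ATP synthase. The mitochondrial genome encodes core membrane subunits of complexes I, III, IV and V, and its genes are transcribed together from both strands and cut apart afterwards. Complex II and all remaining subunits are transcribed in the nucleus one gene at a time, so an assembled complex needs output from both genomes. In macrophages, inflammatory activation is known to move metabolism from the chain toward glycolysis and to use succinate and complex I for oxidant production, whereas alternative activation is known to rely on oxidative phosphorylation.

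Libraries totalled 26316328 to 39818657 estimated counts, and no 2 libraries held identical values. All 12 macrophage markers, Csf1r and Cd68 among them, were detected in every group, at a summed level of 14734 to 35207 CPM per library (counts per 1000000 after scaling). Combination replicate 2 stood apart from the other Combination libraries in that sum (35207 against 14734 and 18009.7). It also did so on the second principal component of all genes (-106 against -32.5 and -55.6). On the same component, CSF1Ri replicate 3 lay away from its own group (32.7 against -22.2 and -24). Component 3 placed replicate 1 of the CD40 agonist at -116, far from replicates 2 and 3 of that agent (-12.8 and 3.71). The 7 markers of NK cells summed to 608 to 1262 CPM under the CD40 agonist, 638 to 1123 under the Combination, 431 to 678 in Control and 314 to 465 under CSF1Ri, with none of the 7 at 0 in any group. Markers of cells other than macrophages were thus detected in every group. The 10 neutrophil markers summed to 542 to 1338 CPM in Control, 461 to 613 under the CD40 agonist, 775 to 3197 under CSF1Ri and 876 to 2588 under the Combination, with Ly6g at 0 in the CD40 agonist group. The 11 markers of eosinophils, basophils and mast cells summed to 101 to 144 CPM in Control, 117 to 212 under the CD40 agonist, 387 to 468 under CSF1Ri and 257 to 375 under the Combination. Both granulocyte lists thus reached their highest sums in CSF1Ri libraries. The 8 markers of melanocytes and melanoma summed to 18.1 to 24.7 CPM in Control, 34.9 to 59.8 under the CD40 agonist, 11.1 to 15.6 under CSF1Ri and 26.6 to 105 under the Combination. At 0 were Sox10 and Slc45a2 in Control, Slc45a2 under the CD40 agonist, and Mlana, Tyrp1, Sox10 and Slc45a2 under CSF1Ri. The 8 markers of muscle and fat summed to 65.9 to 87.5 CPM in Control and to 5.35 to 39.5 in the treated groups, with Myh4 and Ucp1 at 0 in every group. In bulk RNA, fewer cells of a type and less RNA per cell cannot be told apart.

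Per length, the 7 most abundant members in Control were mitochondrial genes, and the other 6 lay below the highest nuclear gene. In Control, in TPM (transcripts per 1000000, a level corrected for length), mt-Co3 stood at 6614 ± 1083 (SD, n = 3), mt-Co2 at 4947 ± 643 and mt-Atp6 at 4374 ± 384. They encode subunits III and II of cytochrome c oxidase and the a subunit of ATP synthase. Next came mt-Atp8 at 3363 ± 253 TPM, mt-Co1 at 2409.6 ± 304, mt-Cytb at 2032 ± 202 and mt-Nd1 at 1947 ± 267. The remaining complex I genes were lower, with mt-Nd4 at 926 ± 131 TPM, mt-Nd6 at 789 ± 114, mt-Nd5 at 589.8 ± 31.8, mt-Nd2 at 535 ± 76.7, mt-Nd4l at 456 ± 131 and mt-Nd3 at 125 ± 18.1. Neighbours in this order whose Control libraries did not overlap were mt-Co3 over mt-Co2, mt-Atp6 over mt-Atp8, mt-Atp8 over mt-Co1, mt-Nd1 over mt-Nd4, mt-Nd6 over mt-Nd5 and mt-Nd4l over mt-Nd3, each ordered the same way in 12 of 12 libraries. The other 6 neighbouring pairs overlapped, and mt-Cytb exceeded mt-Nd1 in only 8 of 12. The highest nuclear gene was Cox4i1, a regulatory subunit of complex IV, between mt-Nd1 and mt-Nd4 at 1323 ± 95.6 TPM in Control, and the lowest was Ndufa11 at 37.7 ± 2.20. The effective length of mt-Atp8 is short, and it shares 43 bases with mt-Atp6, so its TPM is less certain than the others. The genes mt-Nd4l and mt-Nd4 share 7 bases, and mt-Nd5 and mt-Nd6 share 14 on opposite strands, which libraries without strand information cannot separate. Both strands are transcribed, so RNA of the other strand anywhere across mt-Nd6 would be counted as mt-Nd6 too. The level of mt-Nd6 and its place in the order are therefore uncertain. Those of mt-Nd3 and mt-Co1 are uncertain too, because near-identical copies described below share their counts. In Control, the copy of mt-Nd3 held 4256, 5140 and 3296 counts and mt-Nd3 itself 694, 708 and 476. Counts of mt-Nd4l lay between, at 1525, 2150 and 1122, so the order of mt-Nd4l and mt-Nd3 depends on how the copy is treated.

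The 13 mitochondrial genes together held 1.08% to 2.03% of the counts of a library. In Control libraries it was 1.46%, 1.88% and 1.51%. Under the CD40 agonist it was 1.97%, 1.87% and 2.00%, and under CSF1Ri 1.08%, 1.29% and 1.30%. Under the Combination it was 2.03%, 1.29% and 1.68%. Every CSF1Ri library lay below every Control and CD40 agonist library, the Control and CD40 agonist ranges overlapped, and the Combination overlapped every other group, with replicate 2 at the CSF1Ri level. The 44 nuclear genes held 0.442%, 0.467% and 0.424% of counts in Control, 0.502%, 0.487% and 0.472% under the CD40 agonist, 0.420%, 0.441% and 0.452% under CSF1Ri and 0.582%, 0.523% and 0.502% under the Combination. Every CD40 agonist library lay above every Control library in this share, the Combination libraries reached highest, and Control and CSF1Ri overlapped.

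**Figure D1:**
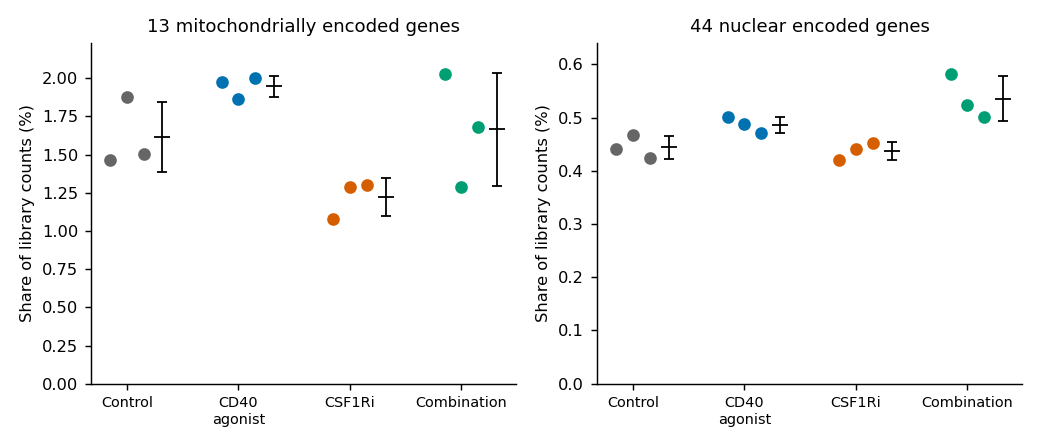
Share of library counts (%) in each of the 12 libraries for the 13 mitochondrially encoded (left) and 44 nuclear encoded (right) respiratory chain genes; points are libraries (replicates 1 to 3 from left), and the bar is mean ± SD of 3. The CSF1Ri libraries sit at 1.08% to 1.30% on the left, below all Control libraries (1.46% to 1.88%), while on the right the 2 groups overlap.

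The ratio of both genomes' transcripts varied between groups. Summed TPM of the mitochondrial genes was 3.02 ± 0.263 times that of the nuclear genes in Control (SD, n = 3), 3.38 ± 0.154 under the CD40 agonist, 2.29 ± 0.136 under CSF1Ri and 2.56 ± 0.427 under the Combination. The means of CSF1Ri and of the Combination were both below that of Control, and the Combination range overlapped it. Under CSF1Ri the mean log2 CPM of the mitochondrial genes was 8.84 ± 0.106 against 9.18 ± 0.209 in Control, and that of the nuclear genes 6.28 ± 0.034 against 6.27 ± 0.066. Under the Combination the mitochondrial mean was 9.33 ± 0.257 and the nuclear mean 6.71 ± 0.145. Combination replicate 2 had the highest nuclear mean of all libraries (6.81) and a mitochondrial mean of 9.09, against 9.60 and 9.29 in replicates 1 and 3. Its scaling factor was the lowest of all libraries (0.867), which raises its CPM. As a share of unscaled counts, its nuclear genes held 0.523%, below replicate 1 at 0.582%. Combination replicate 2 also held the highest sum of macrophage markers, and the part of that sum in its low mitochondrial level was not tested. No p is given for these means, because the members were listed with earlier results of these data known.

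**Figure D2:**
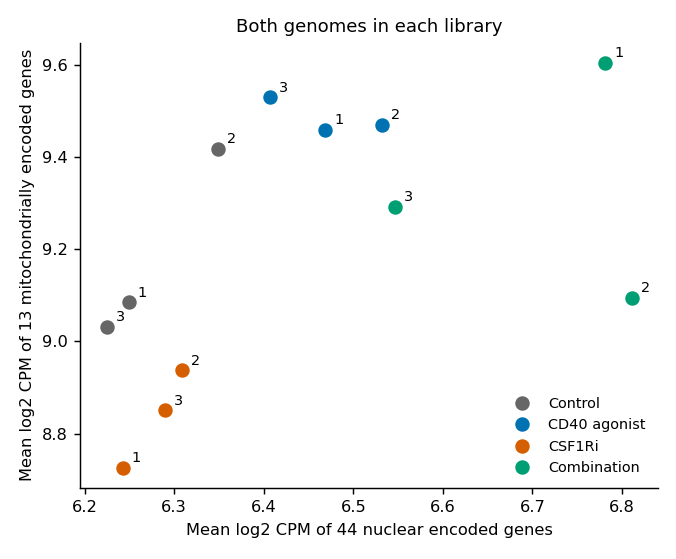
Mean log2 CPM of the 44 nuclear genes (horizontal) against that of the 13 mitochondrial genes (vertical), 1 point per library, numbered by replicate and coloured by group. CSF1Ri libraries lie low on the vertical axis at the nuclear level of Control, and Combination libraries lie to the right, with replicate 2 at a nuclear mean of 6.81 and a mitochondrial mean of 9.09.

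Some members share sequence with copies elsewhere in the genome, and the deposited counts were divided between them. At 95% identity over 150 bases or more, 17 members had 20 pseudogene copies, and for 4 members the copy held over 10% of the joint counts at the median library. The copy Gm28438 (chr1:24612775-24613119, GRCm38, minus strand, unprocessed pseudogene) is 99.7% identical to mt-Nd3 (mitochondrial genome, 9459 to 9806) over 345 bases and held 83.5% to 89.2% of the counts of the pair. The only substitution between them, T3C, counted from 1 at the start of the mt-Nd3 transcript, is in capitals in the first 43 bases of the transcript, shown because so little sequence separates the pair.
mt-Nd3: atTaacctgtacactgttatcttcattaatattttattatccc
Gm28438: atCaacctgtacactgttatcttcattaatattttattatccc
The copy Gm29216 (chr1:24615706-24616197, minus strand) is 99.8% identical to 483 bases of mt-Co1 and held 30.3% to 40.9% of the joint counts. It differs by A1066T alone, in capitals here at transcript positions 1063 to 1106 of mt-Co1.
mt-Co1: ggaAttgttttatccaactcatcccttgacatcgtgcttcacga
Gm29216: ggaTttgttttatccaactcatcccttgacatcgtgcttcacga
For the nuclear genes, the processed pseudogene Gm15920 (chr5:130188395-130188796, plus strand) held 43.1% to 49.6% of its joint counts with Ndufa12. It differs over 402 bases by A225G and T504C, and the window around the first is shown because Ndufa12 carries a call below.
Ndufa12: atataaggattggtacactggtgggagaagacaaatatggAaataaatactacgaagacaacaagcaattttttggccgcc
Gm15920: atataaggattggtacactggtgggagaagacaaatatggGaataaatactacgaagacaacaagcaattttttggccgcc
BC002163 (chr16:42955631-42955949, plus strand) held 40.7% to 48.3% of its joint counts with Ndufs5. The level of these 4 members is therefore uncertain, and where summing the copy in changed a call or a direction, that value is given beside the result. For mt-Nd3 the sum moved the log2 difference between the CD40 agonist and CSF1Ri from 0.45 to 0.79, neither of which passed the test introduced below. Copies identical to mt-Co2, mt-Co3, mt-Nd4, mt-Nd4l and mt-Atp6 over their whole aligned length held at most 29 counts in any library. Cox6c, Ndufb6, Ndufb5 and Cox4i1 overlap genes of the other strand (Vps13b, Smim27, Mrpl47 and Emc8), from which libraries without strand cannot separate them.

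**Figure D3:**
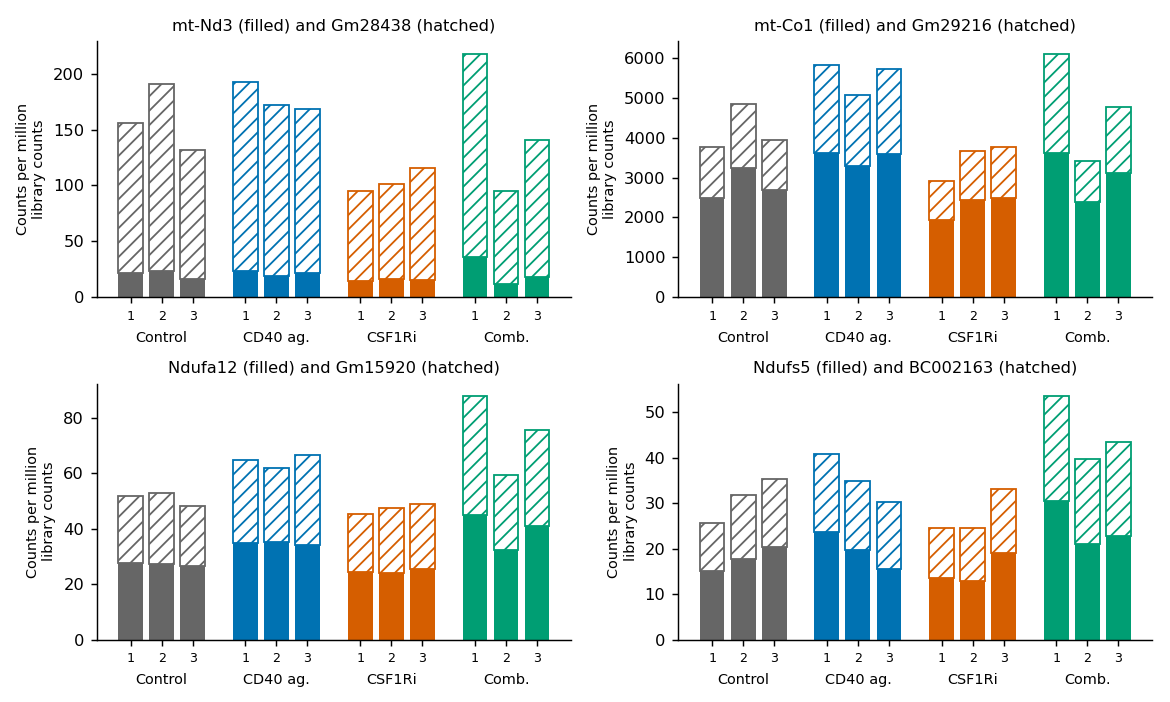
Counts per 1000000 library counts in each library for 4 members (filled) and their nearest pseudogene copy (hatched, stacked on top); numbers below the bars are replicates. For mt-Nd3 the copy holds 83.5% to 89.2% of the bar, and for mt-Co1 30.3% to 40.9%.

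Under the CD40 agonist, all 13 mitochondrial genes had a higher fitted level than in Control, by a median of 0.31 on the log2 scale (all genes tested, 0.011, with 50.9% above 0), and no member passed the test. edgeR's quasi-likelihood test with Benjamini-Hochberg adjustment over 16027 genes called 0 of 57 members at an adjusted p below 0.05, as it called 0% of all genes. DESeq2, limma voom and the bias-adjusted form of edgeR's test called 0 members as well. At an unadjusted p below 0.05, 6 of 13 mitochondrial and 5 of 44 nuclear genes were higher and 0 lower, where 4.39% of all genes were higher and 3.29% lower. The 3 CD40 agonist libraries lay above all 3 Control libraries for 8 of 13 mitochondrial and 10 of 44 nuclear genes, against 8.34% of all genes. The nuclear genes had a median of 0.17, with 39 of 44 above 0 and Ndufb2, Ndufs3, Ndufs7, Ndufa3 and Cox6c below. Ndufb2, an accessory subunit of complex I, was the single member whose libraries all lay below those of Control, against 8.74% of all genes, at 30.9, 38.1 and 30.4 CPM in Control and 29.3, 29.6 and 28.3 under the CD40 agonist. Of 11 marker lists, 3 did not overlap. Melanocyte and melanoma markers summed to 34.9 to 59.8 CPM under the CD40 agonist against 18.1 to 24.7 in Control, erythroid markers to 126 to 195 against 424 to 648, and those of muscle and fat to 26.2 to 39.5 against 65.9 to 87.5. Their part was not tested.

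Among the mitochondrial genes, mt-Cytb encodes cytochrome b, the one mitochondrially encoded subunit of complex III (mitochondrial genome, 14145 to 15288, plus strand, a protein-coding gene). It was at 1482, 1860.1 and 1589 CPM in Control, 2087, 2094 and 2152 under the CD40 agonist, 1092, 1318 and 1259 under CSF1Ri and 2146, 1996 and 1866 under the Combination. The CD40 agonist and Combination libraries lay above all Control libraries and those of CSF1Ri below. Of complex IV, mt-Co1, the catalytic subunit, was at 2399, 3149 and 2585 CPM in Control, 3541, 3399 and 3552 under the CD40 agonist, 1968, 2441 and 2382 under CSF1Ri and 3736, 2753 and 3179 under the Combination. mt-Co2, which receives electrons from cytochrome c, was at 1921, 2493 and 1936 CPM in Control, 2566, 2588 and 2636 under the CD40 agonist, 1387, 1572 and 1656 under CSF1Ri and 3030.1, 1939 and 2403 under the Combination. The CSF1Ri libraries of mt-Co1 lay below those of the CD40 agonist and overlapped Control, whereas the mt-Co2 libraries of CSF1Ri lay below all others. mt-Co3 was at 2873, 4022 and 3085 CPM in Control, 4045, 3970.2 and 3639 under the CD40 agonist, 2135, 2449 and 2468 under CSF1Ri and 4429.8, 2709 and 3357 under the Combination. Its CD40 agonist libraries overlapped those of Control, because Control replicate 2 was nearly as high as the highest of them.

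Of complex V, mt-Atp6 was at 1746, 2117 and 1788 CPM in Control, 2234, 2439 and 2565 under the CD40 agonist, 1394, 1718 and 1597 under CSF1Ri and 2509, 1856 and 2157 under the Combination. mt-Atp8, its neighbour in the same transcript, was at 162, 188 and 162 CPM in Control, 179.7, 239.8 and 217 under the CD40 agonist, 119, 139.7 and 135 under CSF1Ri and 165, 169 and 192 under the Combination. For both genes the CSF1Ri libraries lay below all Control libraries. Of complex I, mt-Nd1, which forms part of the ubiquinone site, was at 1190.5, 1534 and 1152 CPM in Control, 1616, 1699 and 1836 under the CD40 agonist, 918, 1051 and 950.5 under CSF1Ri and 1879, 1044 and 1408 under the Combination. mt-Nd2, a proton-pumping subunit, was at 362, 472 and 352 CPM in Control, 490.2, 468 and 504 under the CD40 agonist, 319, 343 and 321 under CSF1Ri and 597, 272 and 383 under the Combination. In both, Combination replicate 1 was the highest library of all, and Combination replicate 2 was the lowest of its group and, for mt-Nd2, of all 12.

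mt-Nd4, also a proton-pumping subunit, was at 905, 1121 and 812 CPM in Control, 1197, 1123 and 1197 under the CD40 agonist, 695, 820.2 and 779.7 under CSF1Ri and 1183, 874 and 981 under the Combination. mt-Nd4l was at 46.3, 68.04 and 37.6 CPM in Control, 52.6, 58.8 and 61.2 under the CD40 agonist, 35.7, 41.4 and 34.5 under CSF1Ri and 52.9, 46.2 and 55.8 under the Combination. CSF1Ri libraries were below all CD40 agonist libraries in both genes and overlapped Control in both. mt-Nd5, the largest pumping subunit, was at 779, 879 and 760.0 CPM in Control, 919, 925 and 1007 under the CD40 agonist, 669, 756 and 702 under CSF1Ri and 883, 992 and 816 under the Combination. mt-Nd6, the one protein-coding gene of the light strand, whose level is uncertain without strand information, was at 217, 282 and 206 CPM in Control, 319, 283 and 334 under the CD40 agonist, 183, 206 and 188 under CSF1Ri and 372, 268 and 259 under the Combination. Unlike the genes above, mt-Nd5 was higher in Combination replicate 2 than in either other Combination library. mt-Nd3, read together with the limit above, was at 21.1, 22.4 and 15.9 CPM in Control, 22.97, 19.3 and 21.05 under the CD40 agonist, 14.8, 16.6 and 15.01 under CSF1Ri and 37.2, 14.03 and 18.7 under the Combination. Its Combination libraries held both the highest and the lowest value of all 12. With the copy Gm28438 summed in, the lowest was CSF1Ri replicate 1 at 95.95 CPM, against 109.6 in Combination replicate 2.

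From Control to the CD40 agonist, mt-Cytb had the smallest p of the mitochondrial genes, with a log2 difference of 0.36 ± 0.11 (SE, adjusted p = 0.482) in edgeR's test, and mt-Nd6 and mt-Nd1 the largest differences, at 0.41 ± 0.17 and 0.41 ± 0.19. With the copy Gm29216 summed in, mt-Co1 moved from 0.37 to 0.45 (adjusted p = 0.578 in edgeR's test), beyond both. The nuclear gene with the smallest p was Ndufa5, an accessory subunit of complex I. It was at 23.3, 23.01 and 26.2 CPM in Control and 37.9, 39.3 and 36.5 under the CD40 agonist, without overlap, and its log2 difference was 0.65 ± 0.19 (SE, adjusted p = 0.468). Cox5a, a nuclear subunit of complex IV, was at 47.8, 81.1 and 105 CPM in Control and 171, 171 and 119.7 under the CD40 agonist (log2 difference 0.98 ± 0.34 SE, adjusted p = 0.559). Its Control libraries spanned a wider range than the distance from the highest of them to the lowest CD40 agonist library. Sdhd differed by 0.32 ± 0.12 (SE, adjusted p = 0.581) and Ndufa12 by 0.41 ± 0.16 (SE, adjusted p = 0.592), and none of these 4 passed the test.

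Under CSF1Ri, the fitted differences of the mitochondrial genes had the opposite sign, and those of the nuclear genes lay around 0. All 13 mitochondrial genes had a lower fitted level than in Control, by a median of 0.35 on the log2 scale, written as a difference of -0.35 (all genes tested, -0.015, with 51.3% below 0). The 44 nuclear genes had a median of -0.0061, with 21 above and 23 below 0 (48.3% of all genes were above). edgeR's test called 0 of 57 members, where it called 0.0125% of all genes. limma voom and the bias-adjusted test called 0, and DESeq2 called 1, mt-Cytb, where it called 2.78% of the genes it tested. Unadjusted p values below 0.05 were reached by 4 mitochondrial genes and 1 nuclear gene, all lower, where 4.78% of all genes were lower and 4.69% higher. CSF1Ri libraries lay below all Control libraries for 8 of 13 mitochondrial genes and 6 of 44 nuclear genes, against 8.55% of all genes. Of 11 marker lists, 6 did not overlap between these groups. Macrophage markers summed to 22594 to 27877 CPM in the CSF1Ri libraries against 17186 to 20626 in Control, and eosinophil, basophil and mast cell markers to 387 to 468 against 101 to 144. Lower were B cell markers (153 to 194 against 275 to 311 CPM), those of T cells (27.3 to 38.4 against 49.7 to 61.5), of muscle and fat (18.2 to 29.5 against 65.9 to 87.5) and of melanocytes and melanoma (11.1 to 15.6 against 18.1 to 24.7). The part of these shifts in the mitochondrial values was not tested.

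mt-Cytb had the smallest p, with a log2 difference of -0.43 ± 0.11 (SE, adjusted p = 0.217) in edgeR's test, which did not pass. The largest difference was that of mt-Co3, -0.50 ± 0.17 (SE, adjusted p = 0.387), followed by mt-Co2 at -0.46 ± 0.16 (SE, adjusted p = 0.375) and mt-Nd4l at -0.44 ± 0.21 (SE, adjusted p = 0.537). The smallest was that of mt-Nd5 at -0.18 ± 0.11. This order holds without copies. With Gm28438 summed in, mt-Nd3 moved from -0.35 to -0.58 (adjusted p = 0.469 in edgeR's test), beyond mt-Co3. Its CSF1Ri libraries, at 95.95, 101.2 and 110.7 CPM, then lay below those of Control, at 150.4, 185.1 and 126.3. Of the nuclear genes, Ndufa11, a membrane subunit of complex I, was at 71.8, 68.4 and 73.4 CPM in Control and 49.02, 56.2 and 55.4 under CSF1Ri, without overlap (log2 difference -0.41 ± 0.13 SE, adjusted p = 0.332). Ndufs7, which carries the last iron-sulfur cluster before ubiquinone, was at 84.1, 79.6 and 73.8 CPM in Control and 62.8, 63.9 and 69.6 under CSF1Ri (log2 difference -0.27 ± 0.13 SE, adjusted p = 0.545). Ndufs6 differed by -0.34 ± 0.17 (SE, adjusted p = 0.574), and Ndufb11, an accessory membrane subunit at 82.7, 100.3 and 86.2 CPM in Control and 97.5, 120.5 and 105 under CSF1Ri, in the other direction, by 0.26 ± 0.14 (SE, adjusted p = 0.587). No nuclear gene passed the test. Cox5b, a zinc-binding subunit of complex IV, was the one member with all CSF1Ri libraries above all Control libraries, against 7.23% of all genes, at 95.9, 95.3 and 77.4 CPM in Control and 101, 97.1 and 96.4 under CSF1Ri.

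Under the Combination, the nuclear median was above the mitochondrial median. All 44 nuclear genes had a higher fitted level than in Control, by a median of 0.41 on the log2 scale, and Sdhd rose. The 13 mitochondrial genes were all above 0 too, by a median of 0.16 (all genes tested, 0.0017, with 50.2% above 0). edgeR's test called 1 of 57 members, where it called 0.774% of all genes, 0.462% as higher. Without adjustment, 28 of 44 nuclear genes and 1 of 13 mitochondrial genes were higher at p below 0.05 and none lower, where 8.32% of all genes were higher and 6.48% lower. The Combination libraries lay above all Control libraries for 27 of 44 nuclear genes and 1 of 13 mitochondrial genes, against 10.8% of all genes. The Combination mean was the highest of the 4 groups for 43 of 44 nuclear genes, and the share of all genes for which it was highest was not taken. By complex, the nuclear medians were 0.38 for complex I, 0.42 for complex II, 0.44 for complex III and 0.41 for complex IV. Single nuclear genes ranged from 0.0089 (Ndufb2) to 1.71 (Cox5a), and Sdhc, the other membrane anchor of complex II, was at 0.11 ± 0.18. DESeq2 called 15 members here, all nuclear, where it called 6.24% of the genes it tested, and limma voom 2, both nuclear, where it called 0.905%. Without Combination replicate 2 the mitochondrial median was 0.31 and the nuclear median 0.33, and the difference of the medians went from -0.25 to -0.018. In these libraries, 6 of 11 marker lists did not overlap between the groups. Melanocyte and melanoma markers summed to 26.6 to 105 CPM in the Combination against 18.1 to 24.7 in Control, and eosinophil, basophil and mast cell markers to 257 to 375 against 101 to 144. Lower were markers of B cells (109 to 203 against 275 to 311 CPM), T cells (9.22 to 40.6 against 49.7 to 61.5), erythroid cells (12.3 to 314 against 424 to 648) and muscle and fat (5.35 to 19.2 against 65.9 to 87.5). Their part in the nuclear values was not tested.

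Sdhd encodes a membrane anchor of succinate dehydrogenase, complex II, which holds no mitochondrially encoded subunit (chromosome 9, 50596357 to 50603812, GRCm38, minus strand, a protein-coding gene). It was at 157, 178 and 171 CPM in Control, 229, 206 and 198 under the CD40 agonist, 197, 200.5 and 174 under CSF1Ri and 242, 295 and 264 under the Combination. Every Combination library lay above every other library. From Control to the Combination it rose 1.58-fold, a log2 difference of 0.66 ± 0.12 (SE, adjusted p = 0.0362) in edgeR's test. Leaving out Control replicate 1, 2 or 3, CD40 agonist replicate 2, Combination replicate 2 or 3, or CSF1Ri replicate 1 or 2 ended this call, at log2 differences of 0.58 to 0.69 and adjusted p values of 0.0520 to 0.153.

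The largest nuclear difference was that of Cox5a, at 47.8, 81.1 and 105 CPM in Control, 68.5, 113 and 172 under CSF1Ri and 286, 262 and 214 under the Combination. It was 3.27-fold higher, a log2 difference of 1.71 ± 0.35 (SE, adjusted p = 0.0521), which narrowly missed the threshold. Cyc1, the heme-carrying cytochrome c1 of complex III (chromosome 15, 76343523 to 76346260), was at 19.9, 33.9 and 38.2 CPM in Control, 59.9, 62.01 and 39.2 under the CD40 agonist, 23.3, 52.1 and 65.6 under CSF1Ri and 67.7, 79.4 and 59.6 under the Combination, a log2 difference of 1.17 ± 0.36 (SE, adjusted p = 0.174) from Control. For both genes the spread within Control and within CSF1Ri was wide, and replicate 1 was the lowest library of each of these groups. Ndufa12 differed by 0.68 ± 0.16 (SE, adjusted p = 0.0734) and, with its copy Gm15920 summed in, by 0.69 (adjusted p = 0.0465), which is then called.

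**Figure D4:**
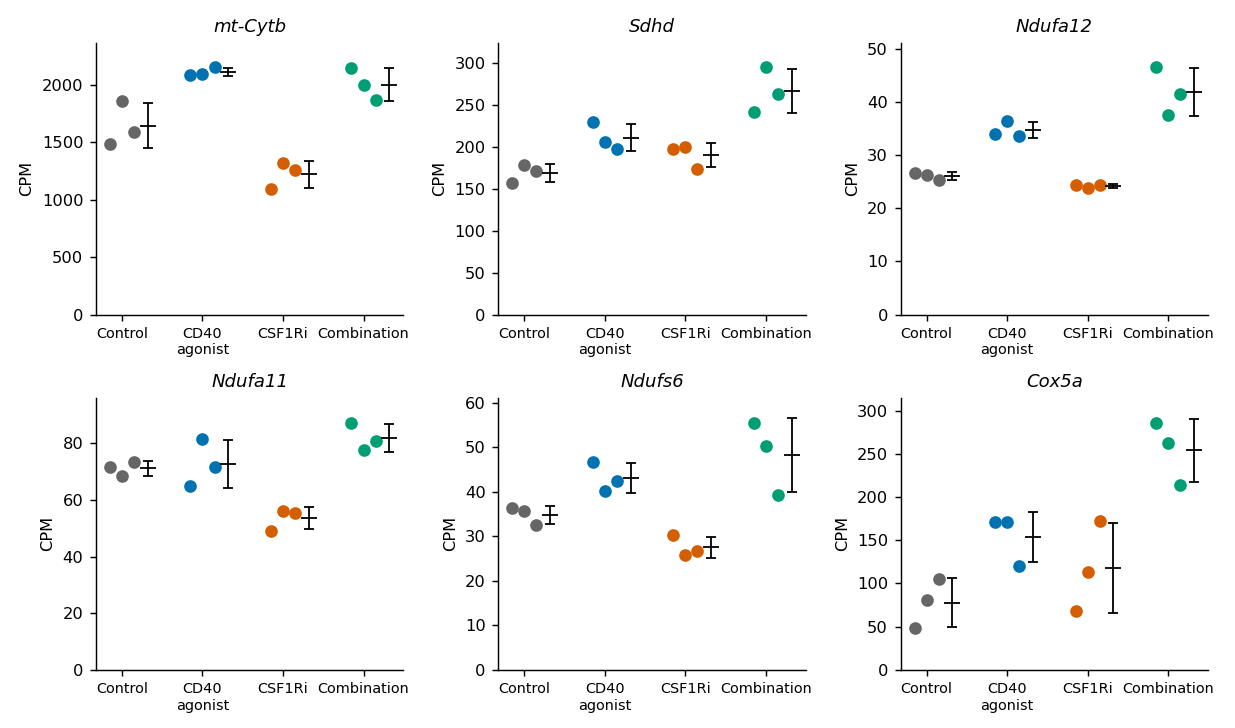
CPM in each library for mt-Cytb, Sdhd, Ndufa12, Ndufa11, Ndufs6 and Cox5a, with linear axes from 0; points are replicates 1 to 3 from left, and the bar is mean ± SD of 3. For Sdhd the Combination libraries (242 to 295 CPM) lie above all others, and for mt-Cytb the CSF1Ri libraries (1092 to 1318 CPM) lie below all others.

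From CSF1Ri to the Combination, the medians of both genomes lay above 0. The mitochondrial median was 0.51 and the nuclear median 0.42 (all genes tested, 0.020, with 51.2% above 0), with 13 of 13 and 43 of 44 genes above 0. edgeR's test called 4 of 57 members, all higher, where it called 1.94% of all genes and 1.24% as higher. They were mt-Cytb, Ndufa12, Ndufa11 and Ndufs6. The last 3 encode complex I subunits, as do 32 of the 44 nuclear and 7 of the 13 mitochondrial members, so complex I is not singled out. Without adjustment, 11 mitochondrial and 27 nuclear genes were higher at p below 0.05 and none lower, where 10.6% of all genes were higher and 7.71% lower. The Combination libraries lay above all CSF1Ri libraries for 10 mitochondrial and 30 nuclear genes, against 10.8% of all genes. DESeq2 called 28 members, 9 mitochondrial and 19 nuclear, where it called 9.94% of the genes it tested, and limma voom 2, where it called 1.78%. Without Combination replicate 2, 8 members were called, 6 mitochondrial and 2 nuclear, and without CSF1Ri replicate 1 or 2 none was. Calls over all genes went from 311 to 429, 43 and 22 in the same fits. The only member below 0 was Ndufb2, at -0.13 ± 0.19. Of 11 marker lists, 3 did not overlap. Markers of NK cells summed to 638 to 1123 CPM in the Combination against 314 to 465 under CSF1Ri, those of melanocytes and melanoma to 26.6 to 105 against 11.1 to 15.6, and those of eosinophils, basophils and mast cells to 257 to 375 against 387 to 468. Their part was not tested.

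mt-Cytb rose 1.64-fold, a log2 difference of 0.71 ± 0.11 (SE, adjusted p = 0.0165). The next mitochondrial genes were mt-Co2 at 0.68 ± 0.16 (SE, adjusted p = 0.0569) and mt-Nd6 at 0.64 ± 0.17 (SE, adjusted p = 0.0756), which did not pass. Ndufa12, an accessory subunit of the complex I matrix arm (chromosome 10, 94198720 to 94221443, plus strand), was at 26.6, 26.3 and 25.3 CPM in Control, 34.1, 36.4 and 33.6 under the CD40 agonist, 24.5, 23.8 and 24.4 under CSF1Ri and 46.6, 37.6 and 41.5 under the Combination. It rose 1.73-fold (log2 difference 0.79 ± 0.16 SE, adjusted p = 0.0337), and by 0.76 (adjusted p = 0.0241) with its copy summed in. Ndufa11 (chromosome 17, 56717767 to 56722141, plus strand) was at 64.9, 81.5 and 71.7 CPM under the CD40 agonist, 49.02, 56.2 and 55.4 under CSF1Ri and 87.4, 77.5 and 81.00 under the Combination, and rose 1.53-fold (log2 difference 0.61 ± 0.13 SE, adjusted p = 0.0403). Its Control libraries lay above all CSF1Ri libraries, and the Combination differed from Control by 0.20 ± 0.13. Ndufs6, a zinc-binding accessory subunit of complex I (chromosome 13, 73319838 to 73328542, minus strand), was at 36.3, 35.8 and 32.4 CPM in Control, 46.6, 40.05 and 42.4 under the CD40 agonist, 30.2, 25.9 and 26.6 under CSF1Ri and 55.5, 50.2 and 39.2 under the Combination (log2 difference 0.81 ± 0.17 SE, adjusted p = 0.0420).

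Every call in this comparison ended when CSF1Ri replicate 1 or 2 was left out. The call of mt-Cytb ended without CSF1Ri replicate 1 or 2, at log2 differences of 0.64 to 0.77 and adjusted p values of 0.0531 to 0.0546. The calls of Ndufa11 and Ndufa12 ended without any one of the Control or CSF1Ri libraries, CD40 agonist replicate 2 or 3, or Combination replicate 1 or 3, at log2 differences of 0.56 to 0.65 and 0.71 to 0.80 and adjusted p values of 0.0513 to 0.136 and 0.0513 to 0.106. The call of Ndufs6 ended in those cases with Combination replicate 1 or 2 in place of 1 or 3, at 0.70 to 0.88 and 0.0608 to 0.130.

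Of the 6 comparisons of groups, the mitochondrial median was largest between both single agents. All 13 mitochondrial genes were higher under the CD40 agonist than under CSF1Ri, by a median of 0.63 (all genes tested, 0.022, with 51.6% above 0), and for all 13 the 3 CD40 agonist libraries lay above the 3 CSF1Ri libraries, against 11.2% of all genes. The nuclear genes had a median of 0.17, and 14 of 44 were separated in that direction and 1, Ndufb2, in the other, against 10.1% of all genes. edgeR's test called 1 of 57 members, mt-Cytb, where it called 0.387% of all genes and 0.25% as higher. It was 1.73-fold higher, a log2 difference of 0.79 ± 0.11 (SE, adjusted p = 0.0190). Another 11 mitochondrial and 6 nuclear genes were higher at an unadjusted p below 0.05, where 8.14% of all genes were higher and 5.88% lower. The largest difference was that of mt-Nd1, 0.82 ± 0.19 (SE, adjusted p = 0.0881), and the smallest that of mt-Nd5, 0.42 ± 0.11 (SE, adjusted p = 0.109). DESeq2 called 13 members, 10 of them mitochondrial, where it called 6.31% of the genes it tested. The nuclear genes with the smallest p were Ndufs6 at 0.64 ± 0.17 (SE, adjusted p = 0.136), Ndufa11 at 0.44 ± 0.13 (SE, adjusted p = 0.169), Ndufa12 at 0.52 ± 0.16 (SE, adjusted p = 0.173) and Sdha, the flavoprotein of complex II, at 0.43 ± 0.17 (SE, adjusted p = 0.293). Sdha was at 153, 126 and 182 CPM in Control, 164, 184 and 209 under the CD40 agonist, 129, 123 and 159.5 under CSF1Ri and 242, 187 and 188 under the Combination. The call of mt-Cytb ended without CD40 agonist replicate 2 or 3 or CSF1Ri replicate 1 or 2, at log2 differences of 0.72 to 0.86 and adjusted p values of 0.0598 to 0.0791. Without Combination replicate 2, which is in neither group, 8 members were called, all mitochondrial, and without Combination replicate 1, 3. Calls over all genes rose in the same fits, from 62 to 218 and to 82. Of 11 marker lists, 7 did not overlap. NK cell markers summed to 608 to 1262 CPM under the CD40 agonist against 314 to 465 under CSF1Ri, melanocyte and melanoma markers to 34.9 to 59.8 against 11.1 to 15.6, and B cell markers to 288 to 374 against 153 to 194. Lower were markers of macrophages (15941 to 20235 against 22594 to 27877 CPM), neutrophils (461 to 613 against 775 to 3197), eosinophils, basophils and mast cells (117 to 212 against 387 to 468) and erythroid cells (126 to 195 against 209 to 536). Their part was not tested.

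**Figure D5:**
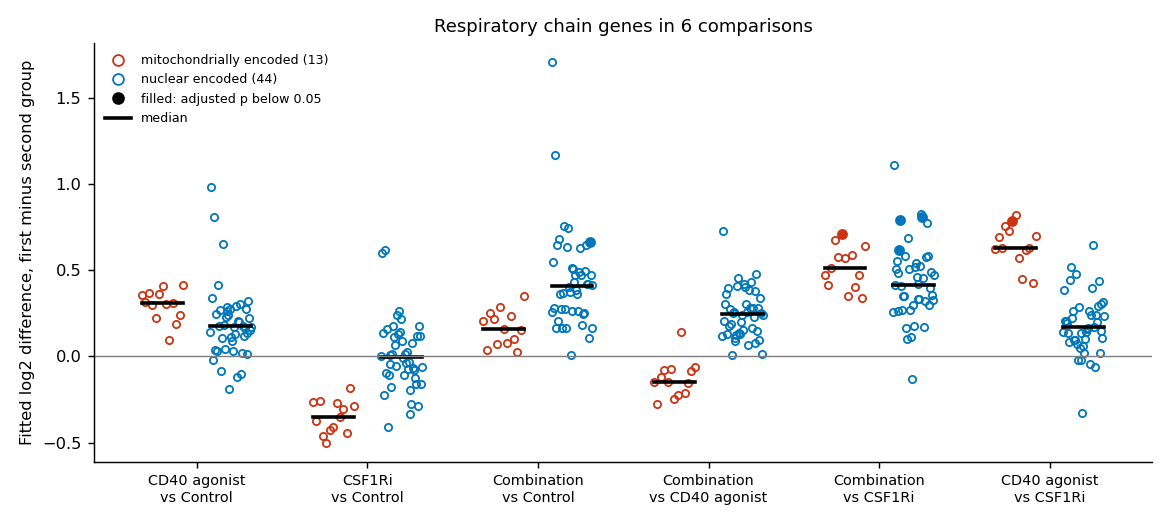
Fitted log2 difference of each of the 57 genes in 6 comparisons, mitochondrial genes in red and nuclear genes in blue; the black line is the median of each set, and filled points passed the test. The mitochondrial median lies at 0.31 for the CD40 agonist and -0.35 for CSF1Ri, both against Control, while the nuclear median is highest for the Combination, at 0.41 against Control and 0.42 against CSF1Ri. Comparisons that share a group are not independent.

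From the CD40 agonist to the Combination the medians of the genomes lay on opposite sides of 0. The nuclear genes had a median of 0.25, with 44 of 44 above 0, and the mitochondrial genes a median of -0.15, with 12 of 13 below 0 (all genes tested, -0.00067, with 49.9% above and 50.1% below 0). edgeR's test called 0 of 57 members, as it called 0% of all genes. DESeq2, limma voom and the bias-adjusted test called 0 members. Without adjustment, 8 nuclear and 0 mitochondrial genes were higher at p below 0.05 and 0 members lower, where 4.68% of all genes were higher and 4.37% lower. Of the nuclear genes, 11 were separated from the CD40 agonist libraries, all higher, against 6.6% of all genes, and no mitochondrial gene was in either direction, against 6.93% of all genes lower. Ndufb7, an accessory subunit of the complex I membrane arm, was at 101, 92.7 and 86.6 CPM under the CD40 agonist and 136, 123 and 110.4 under the Combination (log2 difference 0.40 ± 0.13 SE, adjusted p = 0.380). Ndufv2, an iron-sulfur subunit of the NADH-oxidizing module, was at 119.6, 129 and 117 CPM under the CD40 agonist and 186, 150.5 and 139.7 under the Combination (log2 difference 0.38 ± 0.14 SE, adjusted p = 0.419). The accessory subunit Ndufa8 was at 81.4, 74.5 and 76.5 CPM under the CD40 agonist and 98.6, 109 and 100.2 under the Combination (log2 difference 0.41 ± 0.16 SE, adjusted p = 0.462). In all 3 genes the groups did not overlap, and none passed the test. Sdhd differed by 0.34 ± 0.12 (SE, adjusted p = 0.411). The single mitochondrial gene above 0, mt-Nd3 at 0.14, was at -0.15 once its copy was summed in. Without Combination replicate 2, 5 of 13 mitochondrial genes were above 0, and their median was -0.048. Of 11 marker lists, 5 did not overlap. Neutrophil markers summed to 876 to 2588 CPM in the Combination against 461 to 613 under the CD40 agonist, and eosinophil, basophil and mast cell markers to 257 to 375 against 117 to 212. Lower were markers of B cells (109 to 203 against 288 to 374 CPM), endothelium (49.7 to 65.5 against 67.8 to 107) and muscle and fat (5.35 to 19.2 against 26.2 to 39.5). Their part was not tested.

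The interaction asks whether the effect of one agent changed in the presence of the other. edgeR's test called 0 of 57 members for it, as it called 0% of all genes, and DESeq2, limma voom and the bias-adjusted test called 0. Without adjustment, 6 nuclear genes and 1 mitochondrial gene were positive at p below 0.05 and 0 negative, where 4.64% of all genes were positive and 3.51% negative. The median interaction was 0.23 for the nuclear genes, with 40 of 44 above 0, and 0.16 for the mitochondrial genes, with 13 of 13 above 0 (all genes tested, 0.017, with 51.3% above 0). The smallest p values were those of Ndufa11 (log2 difference 0.58 ± 0.18 SE, adjusted p = 0.451), Ndufs7 (log2 difference 0.56 ± 0.19 SE, adjusted p = 0.455), Ndufb7 (log2 difference 0.51 ± 0.18 SE, adjusted p = 0.479) and Cox6c, an accessory subunit of complex IV (log2 difference 0.53 ± 0.21 SE, adjusted p = 0.531). Ndufs7 was at 66.03, 71.4 and 83.6 CPM under the CD40 agonist and 92.1, 94.5 and 82.1 under the Combination. Ndufb7 was at 85.8, 102 and 87.2 CPM in Control and 84.1, 84.6 and 85.9 under CSF1Ri. Cox6c was at 145, 162 and 137 CPM in Control, 147, 162 and 129 under the CD40 agonist, 128, 120.4 and 131 under CSF1Ri and 217, 164 and 159 under the Combination. For Ndufs7 and Ndufb7 the CSF1Ri mean was below Control while the Combination mean was above the CD40 agonist. mt-Cytb had the largest mitochondrial value relative to its error, 0.35 ± 0.15 (SE, adjusted p = 0.598). A test for any difference among the 4 groups called 1 of 57 members, mt-Cytb (adjusted p = 0.0273), where it called 1.2% of all genes (16.3% at an unadjusted p below 0.05). That call was lost without Control replicate 1 or 3, CD40 agonist replicate 2 or 3, or CSF1Ri replicate 1 or 2 (0 members called), and 2 to 3 members were called without Combination replicate 2 or CSF1Ri replicate 3.

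Promoters of the 4 nuclear genes with a call were read from RefSeq (GRCm38.p6), from 250 bases before to 50 after the start of the transcript, because these are the nuclear members that passed the test. The windows are chr9:50603800-50604099 on the minus strand for Sdhd, chr17:56717512-56717811 on the plus strand for Ndufa11, chr13:73328433-73328732 on the minus strand for Ndufs6 and chr10:94198785-94199084 on the plus strand for Ndufa12. Capitals mark matches, on either strand, to the motif of NRF1 (GCGCA, any base, GCGC), a factor known for nuclear respiratory genes, of ETS factors such as GABPA (CCGGAAG), and of YY1 (AA, any base, ATGGCGGC).
Sdhd: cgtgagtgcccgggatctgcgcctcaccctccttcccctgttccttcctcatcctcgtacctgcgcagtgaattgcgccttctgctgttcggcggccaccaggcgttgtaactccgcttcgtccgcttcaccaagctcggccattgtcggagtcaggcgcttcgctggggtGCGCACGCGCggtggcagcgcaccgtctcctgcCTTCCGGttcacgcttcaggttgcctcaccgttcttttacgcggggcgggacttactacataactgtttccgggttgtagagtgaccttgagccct
Ndufa11: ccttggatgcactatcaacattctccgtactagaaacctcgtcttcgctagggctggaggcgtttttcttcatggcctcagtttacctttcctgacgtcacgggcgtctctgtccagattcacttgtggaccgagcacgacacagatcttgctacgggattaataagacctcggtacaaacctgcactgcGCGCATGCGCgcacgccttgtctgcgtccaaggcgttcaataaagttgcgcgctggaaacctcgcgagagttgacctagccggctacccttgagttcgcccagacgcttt
Ndufs6: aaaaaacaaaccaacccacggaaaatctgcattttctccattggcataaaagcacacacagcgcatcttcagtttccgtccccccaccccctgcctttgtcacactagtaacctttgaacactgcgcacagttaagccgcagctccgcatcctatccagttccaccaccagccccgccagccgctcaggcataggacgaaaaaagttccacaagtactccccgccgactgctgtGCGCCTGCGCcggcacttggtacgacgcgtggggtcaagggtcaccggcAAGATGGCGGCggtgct
Ndufa12: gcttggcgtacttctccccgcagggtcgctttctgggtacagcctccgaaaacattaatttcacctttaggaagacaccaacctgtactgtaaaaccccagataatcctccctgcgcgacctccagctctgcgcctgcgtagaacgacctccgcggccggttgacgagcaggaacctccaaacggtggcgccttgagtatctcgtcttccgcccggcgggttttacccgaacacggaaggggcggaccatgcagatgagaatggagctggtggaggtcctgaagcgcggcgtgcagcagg
The Sdhd window holds an NRF1 match at positions 172 to 181 and an ETS match, on the other strand, at 205 to 211. The Ndufa11 window holds an NRF1 match at 191 to 200, and that of Ndufs6 an NRF1 match at 235 to 244 and a YY1 match at 284 to 294, past the start. The Ndufa12 window holds no exact match to these motifs. In GENCODE the gene starts at 94198720, before the first base of this window, so sequence upstream of that start was not searched. Of 44 nuclear members, 35 had a promoter in the table. The NRF1 motif was in 9 of these 35 (25.7%), against 5.19% of all 27025 genes with a promoter in the table, the ETS motif in 6 (17.1%, against 9.93%) and the YY1 motif in 4 (11.4%, against 1.17%). Per promoter, of which the table holds 32851, the shares were 4.6%, 8.86% and 0.986%. Besides Sdhd, Ndufa11 and Ndufs6, the NRF1 motif was in Ndufa5, Ndufa6, Ndufa8, Ndufs5, Sdha and Uqcrc1. The motifs do not overlap each other in the 4 windows shown. A match describes the sequence and does not show binding.

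Other genes of the pathway were read from lists in the same fit. Of 18 further subunits of the chain, 18 lay above Control in the Combination (median 0.36), and 0 passed edgeR's test, with 11 higher and 0 lower at an unadjusted p below 0.05 (8.32% and 6.48% of all genes) and 4 called by DESeq2 (6.24% of the genes it tested). Against CSF1Ri, 2 of the 18 rose and 0 fell, where 1.24% of all genes rose and 0.699% fell. They were Cox6b1 at 149, 154 and 137 CPM under CSF1Ri and 238, 220.3 and 198 under the Combination (log2 difference 0.58 ± 0.12 SE, adjusted p = 0.0361) and Cox6a1 (log2 difference 0.52 ± 0.12 SE, adjusted p = 0.0482), both of complex IV. Of 15 nuclear ATP synthase genes, 3 rose against CSF1Ri and 0 fell, against the same 1.24% and 0.699% of all genes, with a median of 0.46 (all genes, 0.020). These were Atp5g3, the membrane-ring c subunit (log2 difference 0.84 ± 0.14 SE, adjusted p = 0.0186), Atp5j, coupling factor 6 (log2 difference 0.70 ± 0.12 SE, adjusted p = 0.0230), and Atp5a1, the catalytic-head alpha subunit (log2 difference 0.61 ± 0.12 SE, adjusted p = 0.0314). Atp5j was at 115, 115 and 115 CPM under CSF1Ri and 187, 206 and 167 under the Combination, without overlap. The ATP synthase calls went to 0 without CSF1Ri replicate 1 or 2, and those of the further subunits to 0 without any one Control library, CD40 agonist replicate 3, Combination replicate 1, or any one CSF1Ri library.

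Of 36 assembly factors, which build the complexes without staying in them, 0 passed edgeR's test in any of the 7 comparisons, with medians from 0.0014 to 0.15. At an unadjusted p below 0.05, 4 were higher and 1 lower in the Combination against Control, where 8.32% of all genes were higher and 6.48% lower. DESeq2 called 3 of the 36 there, where it called 6.24% of the genes it tested. Uqcc2, an assembly factor of complex III, came closest, at 30.98 ± 2.06 CPM under CSF1Ri and 53.4 ± 5.56 under the Combination (SD, n = 3), a log2 difference of 0.79 ± 0.18 (SE, adjusted p = 0.0529). Of 23 genes for mitochondrial DNA replication, transcription and RNA handling, 0 passed in any comparison, with a median of 0.14 for the Combination against Control and -0.036 against CSF1Ri. Against CSF1Ri, 2 of them were higher and 3 lower at an unadjusted p below 0.05, where 10.6% and 7.71% of all genes were, and DESeq2 called 1 (9.94% of the genes it tested). The smallest p was that of Ssbp1, the single-stranded DNA binding protein of mitochondria, at 35.04 ± 1.77 CPM under CSF1Ri and 51.6 ± 5.18 under the Combination, a log2 difference of 0.56 ± 0.14 (SE, adjusted p = 0.0668).

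Of 8 nuclear regulators, 1 fell from CSF1Ri to the Combination, where 0.699% of all genes fell. It was Pprc1, a coactivator related to PGC-1, at 22.1, 30.5 and 26.00 CPM under CSF1Ri and 11.3, 11.01 and 6.59 under the Combination (log2 difference -1.44 ± 0.31 SE, adjusted p = 0.0439), a call that ended in 11 of the 12 fits that leave out 1 library. Nrf1 itself was at 49.8 ± 17.03 CPM under CSF1Ri and 45.2 ± 6.26 under the Combination (log2 difference -0.14 ± 0.23 SE, adjusted p = 0.804). Of 13 genes of the tricarboxylic acid cycle, 13 lay above Control in the Combination (median 0.35) and 0 passed, with 6 higher and 0 lower at an unadjusted p below 0.05 (8.32% and 6.48% of all genes) and 2 called by DESeq2 (6.24% of the genes it tested). Mdh2, malate dehydrogenase, came closest, at 285 ± 16.9 CPM in Control and 402 ± 24.1 under the Combination (log2 difference 0.50 ± 0.10 SE, adjusted p = 0.0521). Of 6 alternative or induced subunits, 0 passed in any comparison, and against Control in the Combination 2 were higher at an unadjusted p below 0.05 (8.32% of all genes) and DESeq2 called 0. AA467197, the mouse counterpart of the complex IV subunit NMES1 that inflammatory macrophages induce, was at 3.52, 3.39 and 3.38 CPM in Control and 21.5, 2.30 and 7.81 under the Combination.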

How the data were processed

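The 57 members and the gene lists were chosen with earlier results of these data known. Unstranded libraries were made from 50 ng of RNA and read as 75-bp pairs, with 6 to a lane, per the labels' protocols, which do not say which libraries shared a lane. The submitters' processing notes name STAR, HTSeq, DESeq2 and mm10. Per the file headers, however, the authors deposited estimated counts and TPM per transcript beside 2 lengths, and no source used here names the program that wrote them. The deposited estimated counts (expected counts, not normalized) of 110203 of 111462 transcripts (98.9%) matched GENCODE M21 (GRCm38), were summed per gene and rounded. The rest held 0.378% to 0.436% of counts. Library totals were 26316328 to 39818657, and every member had at least 341 counts in each library. The deposited TPM values served only for levels per length.

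edgeR 4.0.16 (R 4.3.3) fitted all 12 libraries with a term per group (TMM scaling, filterByExpr, robust quasi-likelihood F-tests, 8 residual degrees of freedom), with Benjamini-Hochberg adjustment over 16027 genes at 0.05, and was tested on simulated data. CPM is after TMM scaling, and mean log2 CPM uses a prior count of 2. Copies were found with blastn 2.17.0. Alternatives used DESeq2 1.42.0, limma 3.58.1, other scaling, filters and libraries. Described in full were all mitochondrial genes and, of the nuclear genes, those called or, where none was, the 4 with the smallest unadjusted p in a comparison. Cyc1, Cox4i1, Ndufb2, Cox5b, Sdhc and Ndufs5, and Cox5a outside the comparison that names it, were chosen after their values were seen. Of the listed pathway genes, those called are named, and otherwise at most 2 per comparison. Ndufb1-ps and Fastkd4 were not matched. Coordinates of genes are from GENCODE M21, 1-based.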

Additional observations from a re-analysis of the deposited data

How the results depend on the processing

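Alternatives were 11 changes of scaling, filter, test, samples or copies, 12 fits that each left out 1 library and, chosen after seeing the data, the sum of members with their pseudogene copies. The 11 include a fit without Combination replicate 2 and CSF1Ri replicate 3, libraries that stood apart in these data, so that choice was not independent of the data. That fit kept replicate 1 of the CD40 agonist, although its score on principal component 3 was far from those of its group. A fit without that library is among the 12. Where no cause is named, the cause was not tested. Members called in the Combination against Control went from 1 to 15 with DESeq2, 2 with limma voom, 2 with the bias-adjusted test, 0 with only the groups compared (fewer samples), 2 without Combination replicate 2 and CSF1Ri replicate 3, 2 with copies summed and 0 to 2 with 1 library left out. Against CSF1Ri the Combination went from 4 to 1 with no low-count filter (more genes tested), 28 with DESeq2, 2 with limma voom, 7 with the bias-adjusted test, 0 with only the groups compared and 0 to 8 with 1 library left out. The CD40 agonist against CSF1Ri went from 1 to 13 with DESeq2, 2 with the bias-adjusted test, 4 with only the groups compared, 7 without both named libraries and 0 to 8 with 1 left out. CSF1Ri against Control went from 0 to 1 with DESeq2. The test for any difference went from 1 to 2 with the bias-adjusted test, 2 without both named libraries, 2 with copies summed and 0 to 3 with 1 left out, and was not run with DESeq2, limma voom or only the groups compared. The CD40 agonist against Control, the Combination against the CD40 agonist and the interaction kept 0 members in every fit run, while the all-gene counts of DESeq2 were 194, 275 and 178.

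The mitochondrial minus nuclear median was 0.14 for the CD40 agonist and -0.35 for CSF1Ri against Control, and ranged over 0.099 to 0.25 and -0.37 to -0.22 with 1 library left out. For the Combination it was -0.25 against Control (-0.018 without both named libraries, -0.32 to -0.018 with 1 left out), -0.40 against the CD40 agonist (-0.22, and -0.48 to -0.22) and 0.094 against CSF1Ri (0.32, and -0.027 to 0.26, reversed without Combination replicate 1, at -0.027). For the interaction it was -0.069, reversed to 0.14 without both named libraries and to 0.16 without Combination replicate 2 (-0.17 to 0.16 with 1 left out). For the CD40 agonist against CSF1Ri it was 0.46, and 0.42 to 0.54. All 13 mitochondrial genes stayed below 0 for CSF1Ri against Control and above 0 for the Combination and the CD40 agonist against CSF1Ri in all 24 alternatives. Between 12 and 13 were above 0 for the CD40 agonist against Control and 8 to 13 for the Combination against Control, where 42 to 44 nuclear genes were. With copies summed, the mitochondrial share was 2.165% rather than 1.946% with the CD40 agonist and 1.348% rather than 1.224% with CSF1Ri. Of 9576 other values of single genes, 231 differed in sign from the reported value, none of them called, 60 lost and 90 gained a call.

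Same-numbered libraries did not deviate together (18 pairs, r from -0.061 to 0.060, 0 over 0.1), so the replicate numbers were not taken to pair samples, and 6 of 12 libraries correlated best with their own number. With the replicate number as a block, 0 members were called in the Combination against Control, 1 against CSF1Ri and 0 for any difference.

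Over all 16027 genes, calls in the Combination against CSF1Ri went from 311 to 1486 with DESeq2, 525 with the bias-adjusted test, 0 with only the groups compared, 121 with the block, 632 without both named libraries and 22 to 429 with 1 left out. Those in the Combination against Control went from 124 to 933, 282, 5, 59, 232 and 0 to 154 in that order, and those in the CD40 agonist against CSF1Ri from 62 to 963, 135, 53, 31, 500 and 0 to 218. Calls in CSF1Ri against Control went from 2 to 408 with DESeq2 (1 a member), 338 without both named libraries (0 members) and 0 to 124 with 1 left out (0 members), the highest without CSF1Ri replicate 3. No scaling moved the median of all genes by over 0.1. Every member had at least 341 counts in each library, a counting error of 5.42% at that count, and in 8 of 228 pairs of a gene and a group the spread between replicates was below the counting error of the mean count.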

Other observations

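The spread between replicates had lower medians for the members than for all genes tested, in each of the 4 groups. The coefficient of variation of the 44 nuclear genes had a median of 9.84% in Control, 9.29% under the CD40 agonist, 8.32% under CSF1Ri and 14.4% under the Combination. The 13 mitochondrial genes were at 16.3%, 5.56%, 8.13% and 15.5% in the same order, and all genes tested at 26.3%, 29.2%, 31.7% and 34.6%. The members are more abundant than most genes, and no adjustment for abundance was made.

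By library, Combination replicate 1 was the highest of all 12 for 7 mitochondrial and 20 nuclear genes. Combination replicate 2 was the highest for 22 nuclear genes and the lowest of its group for 9 of 13 mitochondrial genes. These ranks are in CPM after scaling, and the scaling factor of Combination replicate 2 was the lowest of all libraries (0.867). Ranks of libraries and groups were taken for the members only, so no share of all genes stands beside them. CSF1Ri replicate 1 was the lowest library for 10 mitochondrial genes. By group, the CD40 agonist had the highest mean of 12 mitochondrial genes and the Combination of 1, CSF1Ri had the lowest of all 13, and the lowest nuclear means fell to CSF1Ri for 22 genes, Control for 20 and the CD40 agonist for 2.

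The remaining marker lists summed to these levels per library. Of T cells, 8 markers summed to 49.7 to 61.5 CPM in Control, 29.4 to 97.1 under the CD40 agonist, 27.3 to 38.4 under CSF1Ri and 9.22 to 40.6 under the Combination. The 6 B cell markers summed to 275 to 311, 288 to 374, 153 to 194 and 109 to 203 CPM in the same order. The 6 erythroid markers summed to 424 to 648, 126 to 195, 209 to 536 and 12.3 to 314 CPM, those of fibroblasts to 56.3 to 134, 44.7 to 149, 18.8 to 144 and 74.2 to 103 CPM, and those of endothelium to 51.8 to 76.5, 67.8 to 107, 43.2 to 67.9 and 49.7 to 65.5 CPM.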
